A study of Homo sapiens with 4 samples.

Results

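The PGC-1 coactivators and the factors they act with were examined as a set of 10 genes, out of the 19974 protein-coding genes that RefSeq places on chromosomes 1 to 22 and X. The set held the PGC-1 family (PPARGC1A, PPARGC1B and PPRC1), the estrogen-related receptors (ESRRA, ESRRB and ESRRG), the receptors PPARA and PPARG, and the DNA-binding factors NRF1 and GABPA. A peak was assigned to a gene when its summit lay inside the RefSeq span of the gene on GRCh38 or within 10 kb of it. The data were chromatin immunoprecipitation with sequencing (ChIP-seq) for H3K4bhb, histone H3 carrying beta-hydroxybutyrate on lysine 4, in HK-2 cells, an immortalized line of human renal tubular epithelium. Cells received hydrogen peroxide (H2O2), an oxidant, either alone (H2O2 list) or following sodium beta-hydroxybutyrate, abbreviated BHBNa (BHBNa + H2O2 list). All libraries therefore came from H2O2-treated cells, and no untreated cells were analysed here. A treatment comprised 1 immunoprecipitated (IP) library and its control, which the labels name both IgG and input, and yielded 1 list of peaks. With 1 list per treatment the differences have no replicate check, and no test between treatments was possible. Peak lists hold no expression values, so the cell type could not be checked against marker genes.

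PGC-1 proteins bind no DNA themselves. They attach to DNA-bound receptors and factors and recruit histone acetyltransferases and the Mediator complex, which raises transcription of genes for mitochondrial respiration and fatty acid oxidation. In the renal tubule, which depends on mitochondrial ATP for solute transport, PGC-1alpha is known as a regulator of mitochondrial content. Beta-hydroxybutyrate, the main circulating ketone body, can be attached to histone lysines through its coenzyme A ester.

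Peaks fell on 5 of the 10 genes, and the 2 longest genes held most of the peaks. In the H2O2 list 2 genes had a peak, PPARGC1A and ESRRG, with 2 peaks each. In the BHBNa + H2O2 list the same 2 genes and PPARG, NRF1 and GABPA had a peak, for 11 peaks in all, 6 of them in PPARGC1A. PPARGC1B, PPRC1, ESRRA, ESRRB and PPARA had 0 peaks in both lists. Over all 19974 protein-coding genes, 9.53% had a peak by the same rule in the H2O2 list, 19.9% in the BHBNa + H2O2 list and 4.99% in both. The shares of the set were 2 of 10, 5 of 10 and 2 of 10, but its genes are longer than most. The median protein-coding gene spans 24.2 kb, and 9 of the 10 members are longer, the exception being ESRRA. PPARGC1A (681 kb) and ESRRG (634 kb) made up 59.0% of the sequence searched and held 100% of the set's H2O2 peaks and 63.6% of its BHBNa + H2O2 peaks.

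**Figure D1:**
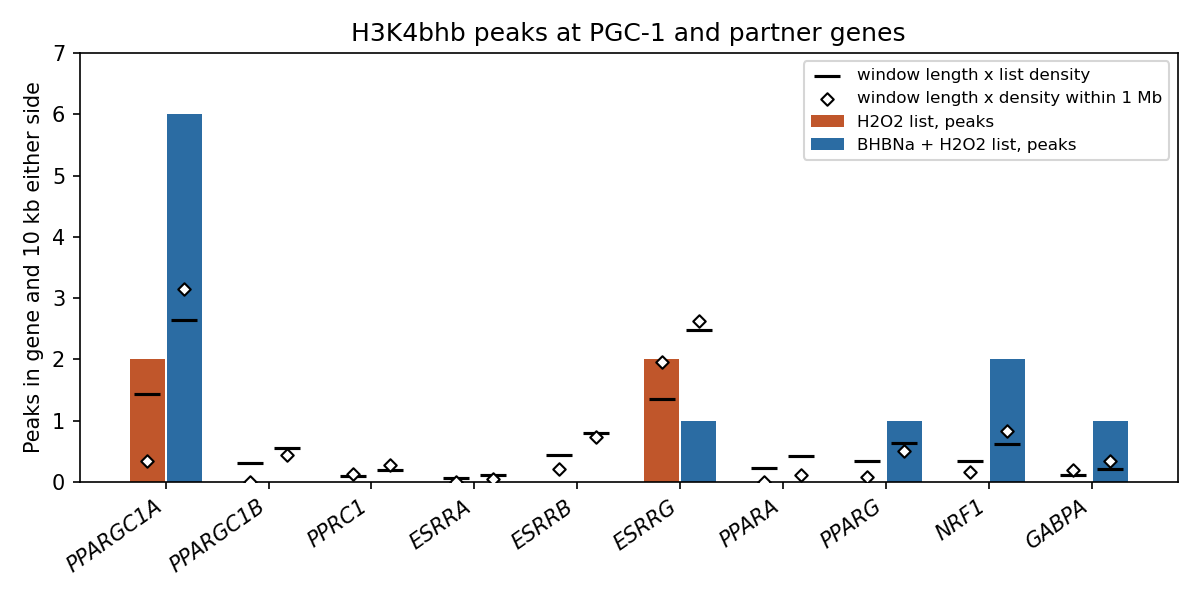
Number of peaks in each gene and 10 kb either side (vertical axis) for the H2O2 list (orange bars) and the BHBNa + H2O2 list (blue bars); black dashes give the window length times the list's average density and diamonds the window length times the density within 1 Mb. PPARGC1A has 2 and 6 peaks, ESRRG 2 and 1, and 5 of the genes have no bar.

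The 4 H2O2 peaks compare with 4.73 from the window lengths and the average density of that list, 2.06 peaks per Mb. The 11 BHBNa + H2O2 peaks compare with 8.7 from a density of 3.78 per Mb. Exact 95% Poisson intervals, which treat peaks as independent and cover counting error only, were 1.09 to 10.2 and 5.49 to 19.7, so both totals included the value from length. The BHBNa + H2O2 list also held 1.84 times as many peaks over the genome. The set held 2.75 times as many, from 11 against 4 peaks with overlapping intervals. These counts are too few to set its ratio apart from the genome-wide one.

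The peaks rested on few fragments. The lists held 6251 and 11510 peaks, with 4 and 2 IP fragments at the median summit, as recovered from each peak's fold and p. The lowest control background scales with IP depth. It was higher in the H2O2 list by a factor of 2.68, so the IP library behind that list is estimated to be the deeper one. The H2O2 list held no summit with fewer than 3 fragments, whereas 51.9% of the BHBNa + H2O2 summits had 2. With 3 or more fragments required, the H2O2 list held 6251 peaks and the BHBNa + H2O2 list 5540, so the larger total of the latter rests on peaks of 2 fragments. At that limit the set held 4 and 7 peaks. The q given for a peak is its p adjusted by the authors' peak caller over the list, and 7.23% and 15.2% of the peaks passed a q of 0.05. Read totals were not used here.

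PPARGC1A (gene 10891, chromosome 4, 23792021 to 24472905, minus strand) encodes PGC-1alpha, the founding member of the family. Its 2 H2O2 peaks had fold enrichments, the authors' ratio of IP to background at the summit with 1 added to each, of 3.92 and 2.98. The first (23894481 to 23894714) rested on 6 fragments over a background of 0.784 with a q of 0.187. The second (24205866 to 24206143) rested on 3 fragments over 0.344 with a q of 0.494. Neither H2O2 peak of PPARGC1A reached a q of 0.05.

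The 6 BHBNa + H2O2 peaks of PPARGC1A had folds from 2.54 to 4.46. The highest (24161675 to 24162005, fold 4.46) rested on 4 fragments over a background of 0.122 and had a q of 0.00473. In its list 4.98% of the folds were higher. The next (24331463 to 24331787, fold 4.27) also rested on 4 fragments, over 0.171, with a q of 0.0168. The third by fold (24171861 to 24172253, fold 3.54) rested on 3 fragments and had a q of 0.0633. The summits of the first and the third were 10.4 kb apart, the closest pair of the gene within a list. Of the other 3 peaks, 23929930 to 23930178 had 3 fragments, and 24075469 to 24075726 and 24122422 to 24122809 had 2 each.

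Local density changed how the PPARGC1A counts read. The window of 701 kb held 2.85 H2O2 peaks per Mb and 8.56 BHBNa + H2O2 peaks per Mb. Chromosome 4 as a whole held 3.1 and 4.22 per Mb, and the sequence within 5 Mb of the window 3.1 and 4.9. Within 1 Mb the densities were 0.5 and 4.5 per Mb, from 1 and 9 peaks. Both densities of PPARGC1A were thus above those of the 1 Mb flanks. Against the chromosome and the 5 Mb flanks, the H2O2 density was slightly lower and the BHBNa + H2O2 density higher. Scaled to the window, the 1 Mb flanks gave 0.35 H2O2 peaks and 3.15 BHBNa + H2O2 peaks. Both lie inside the exact Poisson intervals of the 2 and 6 peaks observed, 0.242 to 7.22 and 2.2 to 13.1, which overlap each other.

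Genes of like length give another scale. Among the 245 protein-coding genes of 500 kb to 1 Mb, 75.1% had an H2O2 peak and 91.4% a peak in the BHBNa + H2O2 list, with medians of 2 and 3 peaks. At least 2 H2O2 peaks, the count of PPARGC1A and of ESRRG, were held by 51.8%. At least 6 BHBNa + H2O2 peaks, the count of PPARGC1A, were held by 12.2%. A ratio of at least 3 between the lists, with at least 1 H2O2 peak, was found in 16.3%. A BHBNa + H2O2 peak with q no higher than 0.05 was found in 35.9% of these genes, and at least 2 such peaks, as in PPARGC1A, in 9.39%. PPARGC1A therefore stood in the upper part of its length class in the BHBNa + H2O2 list and at the median in the H2O2 list.

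**Figure D2:**
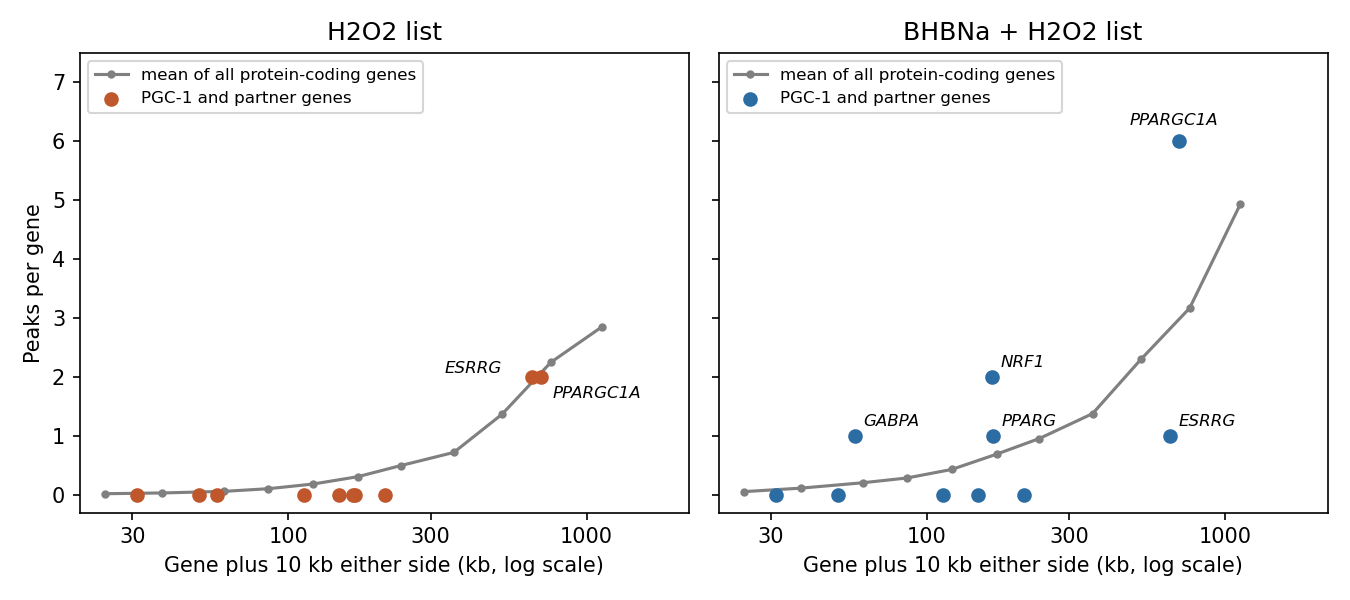
Peaks per gene (vertical axis) against the length of the gene plus 10 kb either side (horizontal log axis, kb) in the H2O2 list (left) and the BHBNa + H2O2 list (right); the grey line is the mean over all protein-coding genes in bins of length and each point is 1 of the 10 genes. PPARGC1A and ESRRG lie at 2 peaks on the left, and on the right PPARGC1A lies at 6 and ESRRG at 1.

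The PPARGC1A peaks were then placed against the starts of the gene. The RefSeq promoter table used here, which is not complete, lists 2 starts for the gene, an outer one at 24472905 and an inner one at 23881101. All 8 summits lay between them, in a stretch of 592 kb or 86.9% of the gene, for which list density gives 1.22 and 2.24 peaks. The remaining 89.1 kb, from the inner start to the far end, held 0 and 0 peaks, where density gives 0.183 and 0.337, too few for the 0 to set this stretch apart. The nearest summit to the inner start was the H2O2 peak 13.5 kb upstream of it, and the nearest BHBNa + H2O2 summit was 48.9 kb upstream. The gene's nearest peaks to the outer start were 267 kb (H2O2) and 141 kb (BHBNa + H2O2) away. A BHBNa + H2O2 summit outside the gene's window was 132 kb away. The distances and the split of the gene hold for the listed starts alone, and a start absent from the table between 23881101 and the H2O2 summit at 23894566 would shorten the 13.5 kb. The windows from 250 bases before to 50 bases after each start, from RefSeq on GRCh38.p14, are shown because neither held a peak, and they differ in base composition. The outer start window holds 42 CpG dinucleotides and the inner one 4, against a median of 14 (interquartile range 4 to 28) over 35116 listed windows.
PPARGC1A, chr4:24472856-24473155, minus strand: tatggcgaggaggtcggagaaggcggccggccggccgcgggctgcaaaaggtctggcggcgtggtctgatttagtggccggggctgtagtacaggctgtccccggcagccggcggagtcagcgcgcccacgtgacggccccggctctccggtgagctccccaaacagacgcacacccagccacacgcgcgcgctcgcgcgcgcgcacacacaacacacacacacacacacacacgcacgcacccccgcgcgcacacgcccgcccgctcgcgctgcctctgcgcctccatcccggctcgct
PPARGC1A, chr4:23881052-23881351, minus strand: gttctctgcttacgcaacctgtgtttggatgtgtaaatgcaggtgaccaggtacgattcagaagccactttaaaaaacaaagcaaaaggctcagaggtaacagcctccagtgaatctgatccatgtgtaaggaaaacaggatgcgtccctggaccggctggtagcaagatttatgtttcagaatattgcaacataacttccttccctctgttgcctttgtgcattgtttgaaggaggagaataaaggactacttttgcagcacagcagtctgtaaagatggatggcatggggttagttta
No capitals appear in the PPARGC1A sequences, since none of 4 motifs searched on both strands was found there. The motif and CpG counts of PPARGC1A cover the listed windows alone, and a start absent from the table was not searched. The usual proximal start of PPARGC1A may be such a start, so the counts may leave out its promoter. The motifs were the cyclic AMP response element TGACGTCA, the core site of estrogen-related receptors AAGGTCA, the NRF1 core GCATGCGC and the ETS-type site of GABP CCGGAAG. The NRF1 core can match both strands at 1 place, and such a match counts as 1 window.

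PPARGC1B (chromosome 5, 149730310 to 149857959, 128 kb) and PPRC1 (chromosome 10, 102119889 to 102150333, 30.4 kb) encode PGC-1beta and the PGC-1-related coactivator, the other two of the family. Both had 0 peaks. The nearest summits to PPARGC1B were 1161 kb away in the H2O2 list and 82.0 kb away in the BHBNa + H2O2 list. For PPRC1 they were 574 and 106 kb away. Density gives 0.304 and 0.559 peaks for PPARGC1B and 0.104 and 0.191 for PPRC1, so counts of 0 are what length alone gives and say little on the mark at these genes. A count of 0 has an exact 95% upper limit of 3.69 peaks.

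ESRRG (gene 2104, chromosome 1, 216503246 to 217137702, minus strand) encodes ERRgamma, an orphan receptor of oxidative tissues that PGC-1 proteins coactivate. It was the gene of the set with more peaks in the H2O2 list, 2, than in the BHBNa + H2O2 list, 1. Among genes of 500 kb to 1 Mb, 23.7% had more H2O2 than BHBNa + H2O2 peaks. The exact intervals of the counts, 0.242 to 7.22 and 0.0253 to 5.57, overlapped almost wholly. List density gives 1.35 and 2.48 peaks for ESRRG, and the flanks of 1 Mb give 1.96 and 2.62.

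The higher H2O2 peak of ESRRG (217064022 to 217064307, fold 3.94) rested on 14 IP fragments, the most of the 15 peaks of the set, and had a q of 0.0249. Its control background was 2.81 fragments, 10.2 times the lowest level of the list, against 1.25 to 3.29 times at the other 3 H2O2 peaks. The background recovered for this peak was thus high where the IP signal was high, and its part in the peak was not tested. That background comes from fold and p, so control signal at the summit itself was not read. The other H2O2 peak (216691587 to 216691970) had a fold of 3.68 from 6 fragments and a q of 0.271. The BHBNa + H2O2 peak (216703294 to 216703679) had a fold of 3.14 from 3 fragments and a q of 0.326. Those last summits lay 11.6 kb apart, the smallest distance between the lists in the whole set, and the peaks did not overlap.

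The promoter table lists 8 starts for ESRRG. The H2O2 summit with 14 fragments lay 12.8 kb downstream of the start at 217076992. That start window holds 1 core site of estrogen-related receptors, AAGGTCA, in capitals below. It is shown as the ESRRG start nearest to a peak.
ESRRG, chr1:217076943-217077242, minus strand: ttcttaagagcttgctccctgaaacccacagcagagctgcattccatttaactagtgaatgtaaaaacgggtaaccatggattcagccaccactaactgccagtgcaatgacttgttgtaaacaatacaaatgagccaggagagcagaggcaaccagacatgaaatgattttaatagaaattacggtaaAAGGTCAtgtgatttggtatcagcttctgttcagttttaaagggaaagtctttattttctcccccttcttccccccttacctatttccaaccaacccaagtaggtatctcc
The window at 217076992 holds 2 CpG, and the peak was outside it. The other 2 ESRRG summits lay 31.6 and 20.0 kb downstream of the start at 216723429.

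ESRRA (chromosome 11, 64305524 to 64316743, 11.2 kb) encodes ERRalpha, the receptor through which PGC-1alpha drives many respiratory genes, and ESRRB (chromosome 14, 76310777 to 76501837, 191 kb) encodes ERRbeta. Both had 0 peaks in both lists. ESRRB missed the 10 kb limit by the least: its nearest BHBNa + H2O2 summit lay 30.1 kb outside the gene, and its nearest H2O2 summit 101 kb. Density gives 0.434 and 0.799 peaks for ESRRB. ESRRA lies in a gene-rich region, with 68 other protein-coding genes within 1 Mb, of which 0 had an H2O2 peak and 3 a BHBNa + H2O2 peak. Its nearest summits were 1160 and 438 kb away.

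PPARG (gene 5468, chromosome 3, 12287368 to 12434344, 147 kb) encodes PPARgamma, the lipid-sensing receptor after which the PGC-1 (PPARgamma coactivator) family is named. It had 0 H2O2 peaks, the nearest 510 kb away, and 1 BHBNa + H2O2 peak (12342895 to 12343158). The PPARG peak had a fold of 3.42 from 3 fragments over 0.171, and a q of 0.121. It lay 8.36 kb upstream of the listed start at 12351417, inside the longer transcripts, and this was the shortest distance from any peak of the set to a listed start of its gene. The window of that start is shown for this reason. It holds 3 CpG and none of the 4 motifs.
PPARG, chr3:12351167-12351466, plus strand: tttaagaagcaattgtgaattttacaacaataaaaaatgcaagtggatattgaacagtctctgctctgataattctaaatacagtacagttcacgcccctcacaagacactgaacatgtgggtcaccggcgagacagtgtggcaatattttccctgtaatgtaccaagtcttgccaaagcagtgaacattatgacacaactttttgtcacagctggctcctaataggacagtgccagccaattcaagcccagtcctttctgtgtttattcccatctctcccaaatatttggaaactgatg
PPARA (chromosome 22, 46150526 to 46243756, 93.2 kb) encodes PPARalpha, the receptor that governs fatty acid oxidation. It had 0 peaks, and its nearest summits were the most distant of the set, 1764 kb in the H2O2 list and 831 kb in the BHBNa + H2O2 list. Chromosome 22 held 0.512 and 1.93 peaks per Mb, below the averages of 2.06 and 3.78. The sequence within 5 Mb of PPARA held 2 and 24 peaks. Average list density already gives only 0.233 and 0.428 peaks for PPARA, so its counts of 0 say little. The part of local density was not tested.

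NRF1 (gene 4899, chromosome 7, 129611720 to 129757076, 145 kb) encodes nuclear respiratory factor 1, which binds promoters of respiratory chain genes. Its H2O2 count was 0, with the nearest summit 102 kb away. The 2 BHBNa + H2O2 peaks (129645867 to 129646160 and 129695893 to 129696168) lay inside the gene, with summits 50014 bp apart. Their folds were 2.62 and 2.63, each from 2 fragments, with a q of 0.326 for both. These folds lay above 20.8% and 22.8% of the list. The H2O2 list holds no peak of 2 fragments, so the 0 against 2 at NRF1 is not read as a difference between the treatments.

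GABPA (gene 2551, chromosome 21, 25734972 to 25772460, 37.5 kb) encodes the DNA-binding subunit of GABP, also called nuclear respiratory factor 2. Its single BHBNa + H2O2 peak (25781520 to 25782020) lay outside the gene, 9156 bp past its 3′ end and just inside the 10 kb limit. It was the widest of the set at 501 bp, where the list median is 324 bp. The GABPA peak had a fold of 3.54 from 3 fragments over 0.131 and a q of 0.0633. The nearest H2O2 summit to the gene was 318 kb away. The GABPA start window holds 21 CpG and 1 ETS-type site, the element that its own product binds, on the opposite strand as CTTCCGG in capitals. It is shown because it holds the motif of its own factor.
GABPA, chr21:25734722-25735021, plus strand: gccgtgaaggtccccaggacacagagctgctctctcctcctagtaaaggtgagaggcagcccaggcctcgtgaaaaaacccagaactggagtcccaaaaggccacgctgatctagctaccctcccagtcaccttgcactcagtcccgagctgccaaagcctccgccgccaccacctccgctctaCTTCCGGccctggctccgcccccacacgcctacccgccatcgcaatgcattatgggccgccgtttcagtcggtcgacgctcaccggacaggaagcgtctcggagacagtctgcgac
The distance from the GABPA start to the nearest BHBNa + H2O2 summit was 31.4 kb, on the other side of the gene from its assigned peak, which lay 46.6 kb downstream.

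The peaks of the set were also placed against all listed starts. The table gave 25 windows for 9 of the 10 genes, all but NRF1. Of the 13 peaks at genes with a listed start, 0 lay within 5 kb of one. Over all protein-coding genes with a listed start, 8.54% of assigned H2O2 peaks and 10.5% of assigned BHBNa + H2O2 peaks did, so a count of 0 of 13 does not set the members apart. The table is not complete, so a start absent from it could raise this count and shorten the distances that follow. The distances of the member peaks ran from 12.8 to 267 kb in the H2O2 list and from 8.36 to 291 kb in the BHBNa + H2O2 list. The CpG-rich windows of PPARA (52 CpG), PPARGC1A (42) and ESRRA (39) had no summit within 100 kb in either list. The next, an ESRRG window at 217089618 (30 CpG), had an H2O2 summit 25.4 kb away. Windows of PPARGC1B (3 CpG) and of ESRRG at 216805385 (4 CpG) also had no summit within 100 kb. That distance was thus not particular to CpG-rich windows. The PPARGC1B window is that of a start inside the gene, at 149771940, and the gene's 5′ end at 149730310 has no listed window. AAGGTCA was in 4 of the 25 windows, at ESRRG and PPARG, and in 3.92% of all listed windows. CCGGAAG was in 2, at GABPA and PPARA, and in 10.3% of all. GCATGCGC was in 2, at ESRRA and PPARA, and in 3.05% of all. TGACGTCA was in 0 of the 25 and in 1.85% of all. The 25 may leave out the usual proximal start of PPARGC1A, which was then not searched. Several windows of PPARG overlap and share a motif. A match describes letters and does not show binding.

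**Figure D3:**
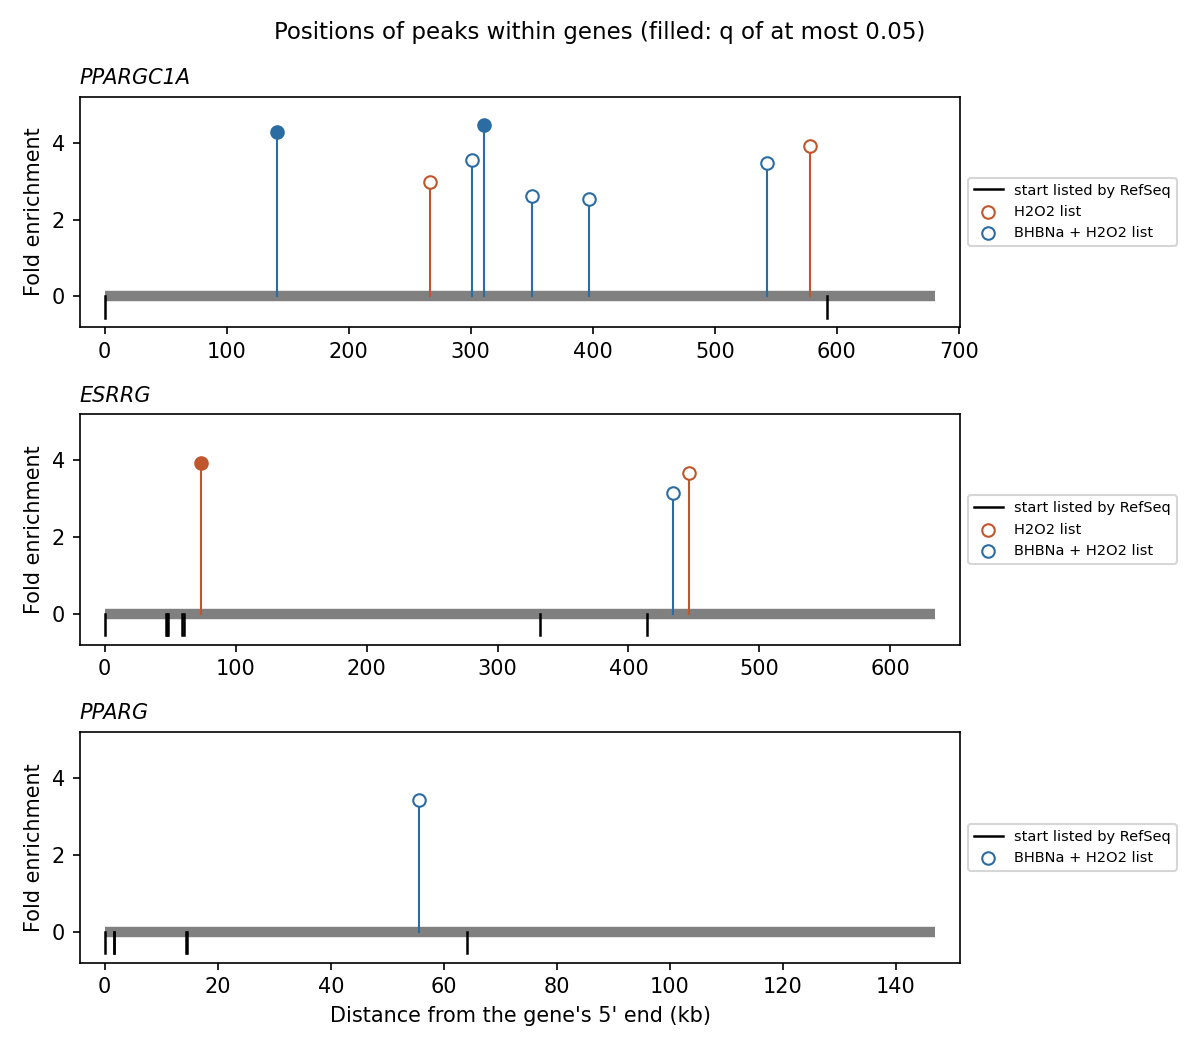
Fold enrichment of each peak (vertical axis) against distance from the gene's 5′ end in kb (horizontal axis) in PPARGC1A, ESRRG and PPARG; grey bars are the genes, black ticks the listed starts, orange the H2O2 list, blue the BHBNa + H2O2 list, and filled points have a q of at most 0.05. In PPARGC1A all 8 peaks lie between the 2 listed starts, and in ESRRG a peak of each list lies close together, 11.6 kb apart.

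Few peaks are shared between the lists anywhere in the genome, and the set followed this. Of the 15 peaks, 0 overlapped a peak of the other list by 1 bp or more, beside 1.19% of all H2O2 peaks and 0.637% of all BHBNa + H2O2 peaks. A summit of the other list lay within 10 kb of 0 of the 15, beside 10.0% and 5.61% of all peaks. Counts of 0 among 4 and 11 peaks are close to these list-wide shares and are not particular to the set. In PPARGC1A the nearest summits of the 2 lists were 33.9 and 35.4 kb apart. In total 14 of the 15 peaks lay inside their gene, and none of the 15 summits lay in another annotated RefSeq gene.

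The fragment counts behind the peaks differed between the lists. The 4 H2O2 peaks rested on 3 to 14 fragments over backgrounds of 0.344 to 2.81. The 11 BHBNa + H2O2 peaks rested on 2 to 4 fragments over 0.122 to 0.274. The ranges of background did not overlap, and they move with IP depth, which differs between the lists. The limit on q of 0.05 was met by 3 of the 15 peaks, 1 in ESRRG (H2O2 list) and 2 in PPARGC1A (BHBNa + H2O2 list). Over all protein-coding genes, 0.896% and 4.14% had such a peak. With 3 or more fragments required, 7 BHBNa + H2O2 peaks at 4 genes remained, NRF1 having dropped out, where 10.6% of all genes have such a peak. The shares of 0.896%, 4.14% and 10.6% are over genes of all lengths, and the members are mostly longer. No excess is read from them. Folds overlapped, with medians of 3.8 in the H2O2 list (2.98 to 3.94) and 3.42 in the BHBNa + H2O2 list (2.54 to 4.46), where the whole lists had medians of 3.51 and 2.72. Because 1 is added to both parts of the ratio, fold at such low counts also depends on depth.

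**Figure D4:**
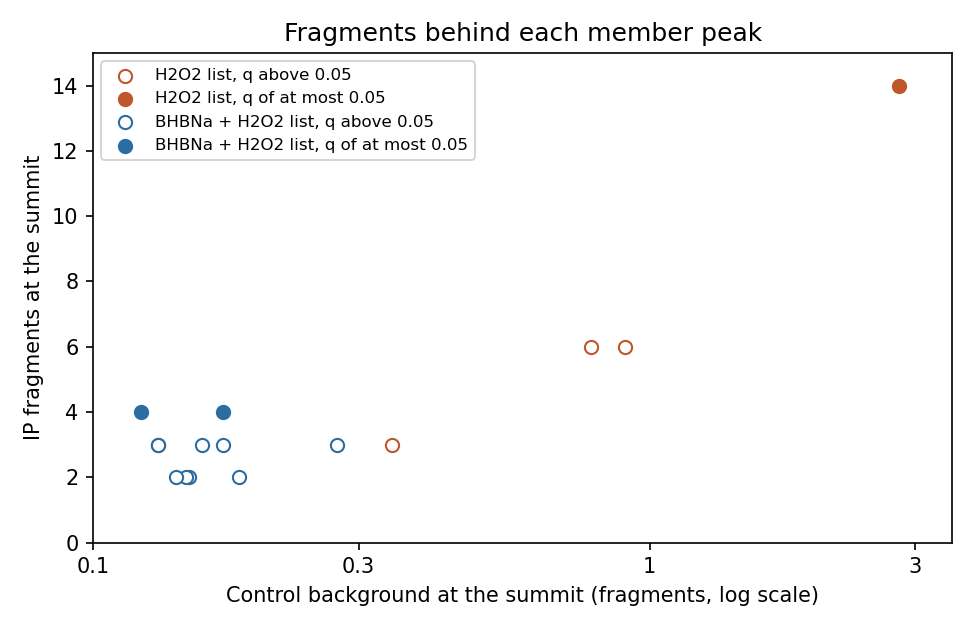
IP fragments at the summit (vertical axis) against control background at the summit (horizontal log axis, fragments) for the 15 peaks, with the H2O2 list in orange, the BHBNa + H2O2 list in blue, and filled points for a q of at most 0.05. The BHBNa + H2O2 peaks sit at 2 to 4 fragments, and the ESRRG peak of the H2O2 list stands apart at 14 fragments over a background of 2.81.

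The shorter members were read against genes of like length in the same way. Of the 4 members of 100 to 250 kb (PPARGC1B, ESRRB, PPARG and NRF1), 0 had an H2O2 peak and 2 a BHBNa + H2O2 peak, where all genes of that class gave 24.8% and 47.0%. Of the 4 members of 10 to 100 kb (PPRC1, ESRRA, PPARA and GABPA), 0 and 1 had a peak, where the class gave 5.69% and 16.3%. With 4 genes in a class, these counts do not set the members apart from genes of like length.

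Other genes of the pathway were read from 4 lists of 95 genes, none of them a member. Among them 6 had a peak in the H2O2 list, 21 in the BHBNa + H2O2 list and 3 in both, beside the 9.53%, 19.9% and 4.99% of all genes. Their 7 and 41 peaks compare with 21.1 and 38.8 from window length and list density. All genes of 10 to 100 kb held 1.07 H2O2 peaks per Mb of window, and those of 100 to 250 kb held 1.82. Both are below the list average of 2.06 used here, whereas genes of 500 kb to 1 Mb held 2.65. The 95 genes have a median length of 44.2 kb but include long ones such as RARB (769 kb) and ESR1 (473 kb), which weigh on the 21.1. No value matched for gene length was computed for the 95, so whether 7 against 21.1 is a deficit was not tested. At a limit on q of 0.05, 0 and 4 genes kept a peak.

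Of 27 further receptors and factors that work with PGC-1 proteins, 2 had an H2O2 peak and 7 a BHBNa + H2O2 peak. RARB, the retinoic acid receptor beta gene of 769 kb, held 2 and 8 peaks, with a highest fold of 4.11 in the H2O2 list and 4.53 (q of 0.00322) in the BHBNa + H2O2 list. The estrogen receptor gene ESR1, 473 kb, held 1 and 5, its H2O2 peak having a fold of 4.44 (q of 0.0734). RARA, a gene of 48.5 kb for another retinoic acid receptor, held 1 BHBNa + H2O2 peak (fold 3.63, q of 0.0484). As in the set itself, the longest genes held most peaks.

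Of 20 cofactors and inhibitors, 2 and 5 had a peak. NCOA2, a p160 coactivator, held 1 and 3 peaks, with highest folds of 3.83 and 3.01. The acetyltransferase genes CREBBP and EP300 each appeared in a single list, CREBBP in the H2O2 list (fold 3.14, q of 0.494) and EP300 in the BHBNa + H2O2 list (fold 3.19, q of 0.311). No cofactor peak reached a q of 0.05.

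Of 22 upstream regulators of PPARGC1A, 2 and 5 had a peak, with 0 genes in both lists. Over all protein-coding genes the shares were 9.53%, 19.9% and 4.99%, so these counts do not set the regulators apart. In the H2O2 list the genes were PRKACB, a catalytic subunit of protein kinase A (fold 2.96, q of 0.532), and PRKAB1. The latter encodes a subunit of AMP-activated protein kinase (fold 2.93, q of 0.494, 2.22 kb outside the gene). In the BHBNa + H2O2 list MAPK14, the p38alpha kinase, had the highest fold, 4.2 with a q of 0.0246, followed by the calcineurin subunit PPP3CA at 3.54 with a q of 0.0633. Of 26 target genes of mitochondrial biogenesis, 0 and 4 had a peak. The highest were near TFB1M, a mitochondrial rRNA methyltransferase (fold 4.27, q of 0.0168, 6.98 kb outside the gene), and in ACADM, a medium-chain acyl-CoA dehydrogenase (fold 3.56, q of 0.186).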

How the data were processed

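ChIP-seq peak lists of 4 libraries (2 IP, 2 control) were used. MACS2 2.2.7.1, Bowtie2 2.4.2 and fastp 0.20.1, besides DiffBind, HOMER and ChIPseeker, are named with GRCh38 per the submitters' processing notes. Settings are not given in the sources used here. Values deposited by the authors for a peak are a ratio (fold enrichment), a score, the −log10 of p and of q, and a summit offset. The 2 files of a treatment held the same peaks (100% equal names, ends and scores), with starts 1 bp apart. The file with the summits is filed under the control library and its peak names give IP against input, so it was read as the IP library's list. In each list −log10 p started at 3.0.

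Fragments (k) and background (b) at a summit were recovered from fold = (k + 1)/(b + 1) and p = Poisson chance of more than k, failing within tolerance for 3 of 6251 and 0 of 11510 peaks. The 15 member peaks each had 1 solution. On simulated data, 100% of 876 and 985 peaks were recovered. Densities used 23 chromosomes, each to its last annotated gene or peak. Genes and start windows came from RefSeq (GRCh38.p14), matched by symbol. All 10 members are named, and of related genes up to 2 per list and treatment by fold. The members and lists were chosen with earlier results of these data known. Python 3.11.15, numpy 2.4.6, pandas 2.3.3, scipy 1.17.1 and matplotlib 3.10.9 were used. Alternatives covered peak threshold, window, assignment, density and overlap.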

Additional observations from a re-analysis of the deposited data

How the results depend on the processing

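No paired analysis was possible because a treatment had a single IP library, so no replicate could be left out either. Leaving out recomputed values that could not change by construction (a filter on a count of 0, or the 3-fragment limit on the H2O2 list), 41 of 47 stayed within 1.5 times the reported count, or within the counting interval of the reported ratio. These intervals are wide (1.09 to 10.2 peaks around the 4 of the H2O2 list), so staying within them is a weak check. Restricting peaks to a q of at most 0.05 left 1 member with a peak in the H2O2 list (ESRRG) and 1 in the BHBNa + H2O2 list (PPARGC1A), with 1 and 2 peaks. The same restriction moved the ratio of observed to expected peaks in the H2O2 list from 0.846 to 2.98, from 1 peak where 0.335 was expected. With the density within 1 Mb it was 1.29, so it lay below 1 or above 1 depending on the density, and over the alternatives it ran from 0.628 to 2.98. Requiring 3 fragments left 7 of the 11 BHBNa + H2O2 peaks, since 4 rested on 2. The corresponding ratio in the BHBNa + H2O2 list was 1.26, and 1.11 to 1.68 over the alternatives. A 50 kb window added ESRRB, for 6 members and 13 peaks in the BHBNa + H2O2 list. Shared peaks were 0 under each overlap rule tried. Depth limits these values: with 2 to 4 fragments at most summits, the presence of a peak in a single list cannot be told apart from a difference in depth.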
